A study of Mus musculus with 10 samples.

Results

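The clustered histone genes are the protein-coding genes of the count table whose symbols begin with Hist1h, Hist2h, Hist3h or Hist4h, a rule that reads only symbol and gene type, and 67 of the 54532 genes in the table met it. They encode the linker histone H1 (6 genes) and the core histones H2A (18), H2B (18), H3 (12) and H4 (13). Of the 67, 54 lay in the Hist1 cluster on chromosome 13, 10 in the Hist2 cluster on chromosome 3, 2 in the Hist3 cluster on chromosome 11 and 1, Hist4h4, on chromosome 6. Splenic B cells were profiled by RNA sequencing in mice whose livers had been made fibrotic with carbon tetrachloride, a hepatotoxic solvent injected into the peritoneum for 4 weeks (fibrosis, 5 libraries), and in wildtype mice (control, 5 libraries). The sources used here state no strain, age, sex, way of isolating the B cells or injection of the controls, so the solvent and the fibrosis cannot be told apart. Nothing says that replicates came from separate animals, and p-values therefore reflect spread among libraries that may be technical. Library totals were 13439100 to 17069393 counts in fibrosis and 15912080 to 17954551 counts in control.

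Histones are the proteins around which DNA is wound into nucleosomes: H3 and H4 form the core, H2A and H2B complete it, and H1 binds the DNA that enters and leaves it. The clustered genes are copied mainly during DNA synthesis, and most of their mRNAs end not in a poly-A tail but just after a conserved stem-loop, which the stem-loop binding protein Slbp recognises for processing, translation and decay. Some of them also make polyadenylated mRNAs from sites further downstream, and such transcripts are known from cells that have stopped dividing. The libraries were made from mRNA captured on poly-T beads, so the values describe captured histone RNA, which is not the total histone mRNA of the cells.

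Captured RNA of many clustered histone genes was higher in fibrosis than in control, while genes of DNA synthesis and mitosis were lower. Together the 67 genes held 17890 counts in fibrosis and 11692 in control. Their summed level, in TMM-scaled CPM (counts relative to library size), was 158.8, 173.6, 196.5, 328.0 and 328.8 in fibrosis libraries 1 to 5, against 130.1, 129.9, 124.1, 141.3 and 128.4 in control libraries 1 to 5. All 5 fibrosis libraries lay above all 5 control libraries, and fibrosis 4 and 5 lay furthest above. The histones stayed a small part of each library, at 0.0152 to 0.0309% of counts in fibrosis and 0.0131 to 0.0146% in control.

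**Figure D1:**
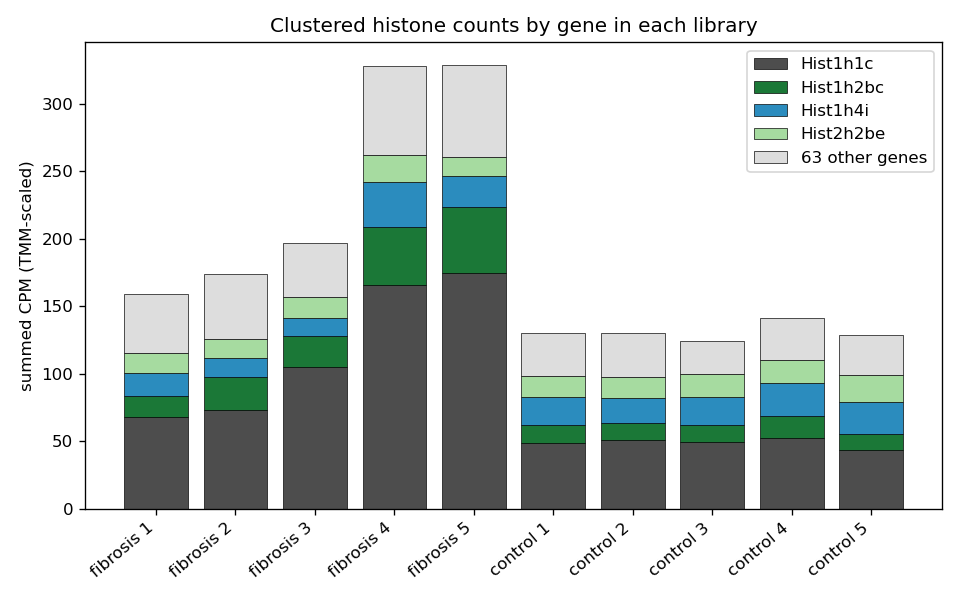
Summed level of the 67 clustered histone genes in each library, in TMM-scaled CPM, split into the 4 genes with the most counts and the 63 others. Bars of fibrosis 4 and 5 reach 328.0 and 328.8 CPM, against 124.1 to 141.3 CPM in the control libraries, and most of the added height is Hist1h1c and Hist1h2bc.

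Of the 67 genes, 25 passed the filter on low counts and were tested with edgeR's quasi-likelihood test among 14283 genes. Of these, 13 were higher in fibrosis at an adjusted p under 0.05, beside 18.6% of all genes tested that were higher. None was lower at an adjusted or an unadjusted p under 0.05 by edgeR or DESeq2, beside 17.2% of all genes tested that were lower; limma voom put 1 gene at an unadjusted p under 0.05 and called none. The 25 had a median log2 fold change of 0.99, against 0.05 over all genes tested. Of the 25, 9 had every fibrosis library above every control library, beside 11.4% of all genes tested. These 9 were all among the 13 higher genes, and the groups overlapped for Hist1h2bc, Hist1h2be, Hist1h3e and Hist1h4n. The filter bears on these counts, since 5 of the 13 (Hist1h1b, Hist1h1d, Hist1h3e, Hist1h4c and Hist1h4h) reached its minimum in all 5 fibrosis libraries but not in all 5 control libraries and so passed through the fibrosis libraries alone. Hist1h4n passed through both groups together, and 7 would also have passed through the control libraries.

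**Figure D2:**
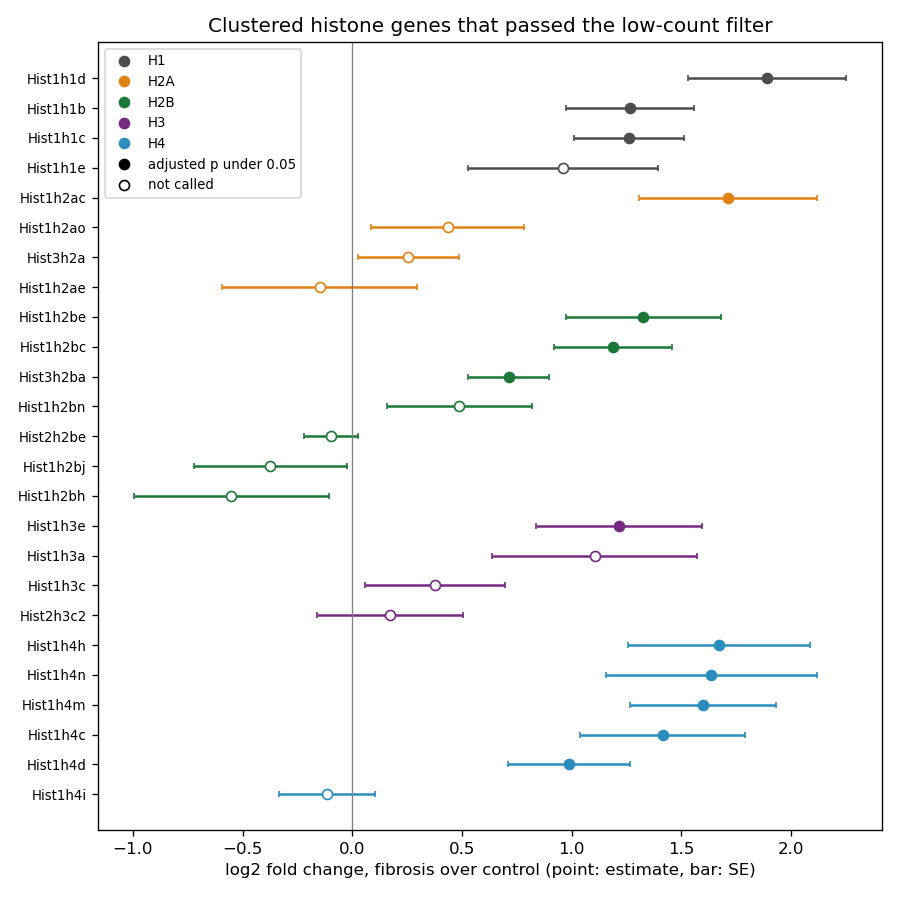
Log2 fold change, fibrosis over control, of the 25 clustered histone genes that passed the filter, grouped by histone type from H1 at the top to H4 at the bottom. Points are edgeR estimates with their standard errors, filled where the adjusted p was under 0.05; all 13 filled points lie between 0.71 and 1.89.

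The 3′ ends of these genes are shown because they bear on which RNA a poly-T capture can hold. In the GENCODE vM21 transcripts, whose coordinates (GRCm38) equal those of the table for all 67 genes, 44 genes had a 16-base stem-loop after the coding sequence, counted as a 6-base stem that begins with GG and pairs across a 4-base loop that begins with TT. The sequence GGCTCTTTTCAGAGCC occurred in 26 genes, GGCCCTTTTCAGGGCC in 7 and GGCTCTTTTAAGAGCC in 6. The stem-loops of 7 genes described below, 5′ to 3′ with the stem-loop in capitals, were:
Hist1h1c: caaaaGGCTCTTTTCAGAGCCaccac
Hist1h1d: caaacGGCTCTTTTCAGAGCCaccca
Hist1h2ac: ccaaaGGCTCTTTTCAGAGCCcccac
Hist3h2ba: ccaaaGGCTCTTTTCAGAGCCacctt
Hist1h4h: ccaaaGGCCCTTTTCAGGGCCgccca
Hist1h4m: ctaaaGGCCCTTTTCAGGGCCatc
Hist1h4i: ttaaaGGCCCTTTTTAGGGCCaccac
They lie at chr13:23739507-23739532 (+) for Hist1h1c, chr13:23555782-23555807 (+) for Hist1h1d, chr13:23683472-23683497 (-) for Hist1h2ac, chr11:58949344-58949369 (+) for Hist3h2ba, chr13:23531453-23531478 (+) for Hist1h4h, chr13:21812124-21812147 (+) for Hist1h4m and chr13:22040961-22040986 (-) for Hist1h4i. The 7 sequences differ little, while what follows them differs much. The annotated transcript went on for 840 bases after the stem-loop in Hist1h1c, 4884 in Hist1h1d, 2010 in Hist1h2ac, 169 in Hist3h2ba and 330 in Hist1h4i, but for 46 in Hist1h4h and 3 in Hist1h4m.

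Most captured histone reads came from genes annotated beyond the stem-loop. The 22 genes with over 100 bases after it held 69.9% of the histone counts and the 22 with 100 bases or fewer held 6.15%. The 23 with no match held 24.0%, most of it in Hist1h2bc, which is annotated with a spliced transcript, and Hist2h2be. Few genes carry such shares: of 29582 counts, not scaled for length, Hist1h1c held 13208, Hist1h4i 3419 and Hist2h2be 2685. No match need not mean no stem-loop, since some annotated transcripts stop just after the coding sequence. Hist1h1b and Hist1h2bn stop 3 bases after it and Hist1h2ah 5 bases after it. The transcripts of Hist1h2bc and Hist2h2be do not stop there but go on for 745 and 2195 bases. The search took only fully paired stems, so a stem-loop with a mismatch would be missed. A poly-A signal (AATAAA or ATTAAA in the last 50 bases of a transcript) was annotated in 17 genes, which held 74.3% of the counts. The signals of 4 genes with high levels, in capitals, were:
Hist1h1c: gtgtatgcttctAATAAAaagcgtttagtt
Hist3h2ba: cataatggtattAATAAAtttggttcaatt
Hist2h2be: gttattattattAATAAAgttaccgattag
Hist1h4i: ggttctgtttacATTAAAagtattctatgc
They lie at chr13:23740330-23740359 (+) for Hist1h1c, chr11:58949495-58949524 (+) for Hist3h2ba, chr3:96223705-96223734 (+) for Hist2h2be and chr13:22040639-22040668 (-) for Hist1h4i. Higher genes occurred with and without these annotated features: 4 of 8 tested genes with a signal were higher, as were 9 of 17 without one. An annotated transcript that stops just after the coding sequence can show neither feature, so these counts describe the annotation. By length beyond the stem-loop, 8 of 14 tested genes with over 100 bases were higher. So were 3 of 7 with 100 or fewer and 2 of 4 with no match. Beside the counts by signal and by length, 18.6% of all genes tested were higher. The filter bears on them too, since 5 of the 13 higher genes passed it through the fibrosis libraries alone. Hist1h1c, Hist3h2ba, Hist2h2be and Hist1h4i all carry a signal, and the first pair rose while the second pair did not pass.

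Among the linker histones 3 of 4 tested genes were higher, beside 18.6% of all genes tested, and the median log2 fold change was 1.26. Hist1h1c (ENSMUSG00000036181, chr13:23738808-23740367, +) had the highest level per length of the 67 genes, at 73.4 ± 29.9 FPKM (fragments per length and library size, as the authors deposited them) in fibrosis and 31.3 ± 2.17 FPKM in control (SD, n = 5 each). It was at 67.6, 73.2, 105, 165 and 175 CPM in fibrosis 1 to 5, against 48.7, 50.9, 49.4, 52.3 and 43.3 CPM in control 1 to 5. The groups did not overlap; fibrosis 1 and 2 were nearest to control and fibrosis 4 and 5 furthest, so that the fibrosis libraries spread over a far wider range than the control libraries. Its log2 fold change was 1.26 ± 0.25 (SE; adjusted p = 0.00248 by edgeR), and it was 0.75 without fibrosis 4 and 5, still higher.

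Hist1h1d (chr13:23553262-23560686, +), a low-level H1 gene, was higher in fibrosis and had passed the filter through the fibrosis libraries alone. Its level was 1.83, 1.48, 1.80, 3.33 and 1.69 CPM in fibrosis, against 1.04, 0.330, 0.319, 0.566 and 0.424 CPM in control. Every fibrosis library lay above every control library, with fibrosis 4 apart at the top and control 1 nearest to the fibrosis libraries. The log2 fold change was 1.89 ± 0.36 (adjusted p = 0.00136 by edgeR), and 1.66 without fibrosis 4 and 5. Hist1h1b was higher, at 0.978, 1.11, 0.598, 0.952 and 0.716 CPM in fibrosis, against 0.383, 0.330, 0.426, 0.339 and 0.303 CPM in control (1.26 ± 0.29, adjusted p = 0.00438 by edgeR). It too had passed the filter through the fibrosis libraries alone, with 5 fibrosis and 0 control libraries at the minimum of 0.586 CPM. The groups did not overlap, but with 0 control libraries at the minimum, passing the filter already required this. In Hist1h1b the highest fibrosis library was fibrosis 2, not fibrosis 4 or 5. Hist1h1e, at 2.03 ± 0.482 CPM in fibrosis and 1.05 ± 0.619 CPM in control, did not pass (0.96 ± 0.43, adjusted p = 0.101 by edgeR).

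**Figure D3:**
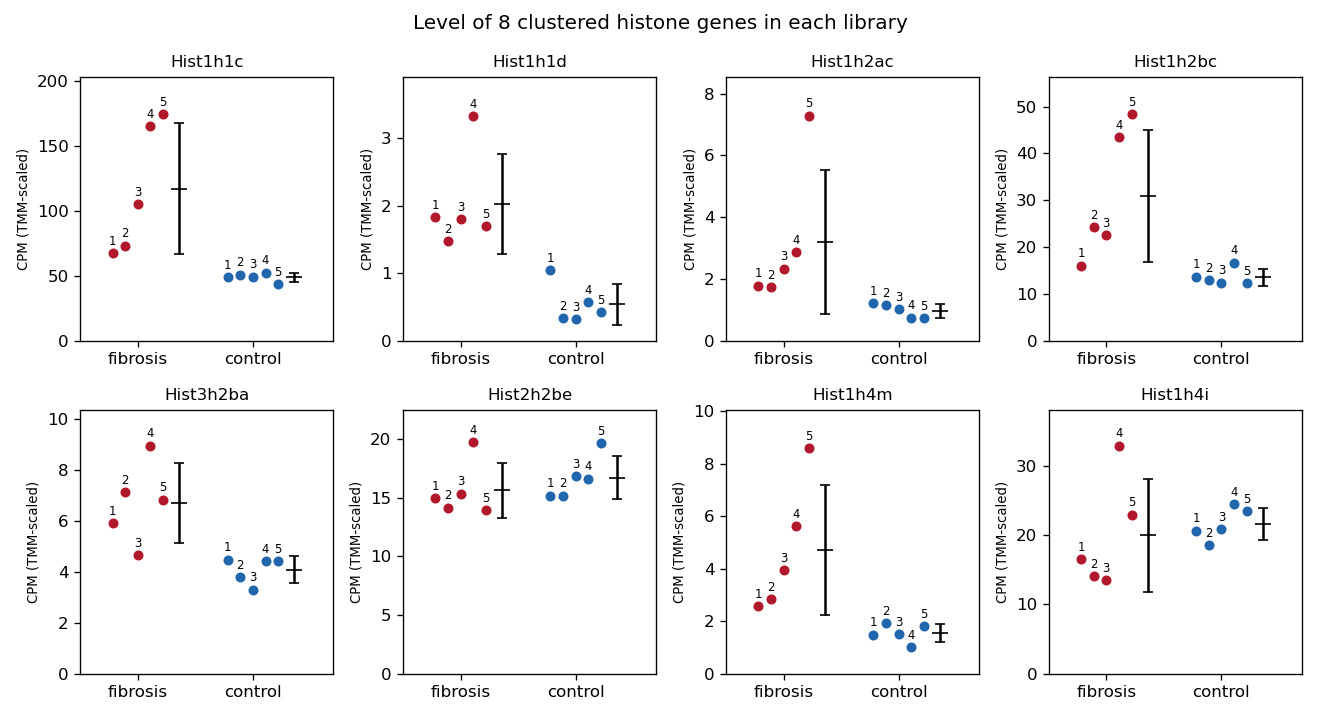
Level of 8 clustered histone genes in each library, in TMM-scaled CPM; points are libraries numbered 1 to 5, with the mean and SD of each group beside them. Fibrosis points of Hist1h1c, Hist1h1d, Hist1h2ac, Hist3h2ba and Hist1h4m lie above all control points, those of Hist1h2bc overlap control at fibrosis 1, and those of Hist2h2be and Hist1h4i overlap control.

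Among the H2A genes 1 of 4 tested was higher, beside 18.6% of all genes tested, and their median log2 fold change was 0.35. Hist1h2ac (chr13:23681467-23683948, -) was at 1.77, 1.73, 2.33, 2.86 and 7.29 CPM in fibrosis, against 1.20, 1.16, 1.01, 0.735 and 0.727 CPM in control. No fibrosis library fell as low as the highest control library, and fibrosis 5 stood far above the others. Its log2 fold change was 1.71 ± 0.41 (adjusted p = 0.00530 by edgeR), and 1.01 without fibrosis 4 and 5. Hist3h2a, at 5.09 ± 1.44 CPM in fibrosis and 4.24 ± 0.963 CPM in control, did not pass (0.26 ± 0.23), nor did Hist1h2ao (0.44 ± 0.35) or Hist1h2ae (-0.15 ± 0.44). Each of the 4 tested H2A genes, Hist1h2ac included, overlaps another gene of the table, and for Hist1h2ac and Hist3h2a also a gene on the same strand. Of the 50-base words of the Hist1h2ao transcript, 93.5% also occur in other genes.

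Of the 7 tested H2B genes, 3 were higher, beside 18.6% of all genes tested, and the median log2 fold change was 0.49. Hist1h2bc (ENSMUSG00000018102, chr13:23684199-23692908, +), a neighbour of Hist1h2ac on the opposite strand, was at 16.0, 24.2, 22.6, 43.5 and 48.4 CPM in fibrosis, against 13.6, 12.9, 12.3, 16.6 and 12.2 CPM in control. Fibrosis 1 lay within the control range and fibrosis 4 and 5 were far above the other fibrosis libraries. The log2 fold change was 1.19 ± 0.27 (adjusted p = 0.00477 by edgeR), and 0.63 without fibrosis 4 and 5, still higher. Hist1h2bc shares 30.6% of its transcript's 50-base words with other genes, 220 in number.

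Hist3h2ba (chr11:58948920-58949533, +) rose in the Hist3 cluster. It was at 5.93, 7.15, 4.67, 8.96 and 6.83 CPM in fibrosis, against 4.48, 3.80, 3.30, 4.41 and 4.42 CPM in control, and the groups did not overlap. Its log2 fold change was 0.71 ± 0.19 (adjusted p = 0.00901 by edgeR), and 0.54 without fibrosis 4 and 5. Hist1h2be was higher at 2.74 ± 1.44 CPM in fibrosis and 1.09 ± 0.336 CPM in control (1.33 ± 0.36, adjusted p = 0.0106 by edgeR), but was no longer called without fibrosis 4 and 5 (0.83). Its annotated span overlaps the end of Hist1h1e on the same strand, so reads from the overlap may not be told apart.

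Hist2h2be (ENSMUSG00000068854, chr3:96221119-96223738, +) did not pass, although it had many counts and none of its transcript's 50-base words occur in another gene. It was at 15.0, 14.2, 15.4, 19.7 and 13.9 CPM in fibrosis, against 15.2, 15.2, 16.9, 16.6 and 19.7 CPM in control. Fibrosis 1, 2 and 5 lay below all control libraries and fibrosis 3 among them. Fibrosis 4 lay just above the highest of them (19.75 against 19.69 CPM). The groups thus overlapped, with a log2 fold change of -0.10 ± 0.12 (adjusted p = 0.572 by edgeR). The other tested H2B genes, Hist1h2bn (0.49 ± 0.33), Hist1h2bj (-0.37 ± 0.35) and Hist1h2bh (-0.55 ± 0.44), did not pass.

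The H3 genes had the smallest sum of the 5 types, at 4.31 to 7.77 CPM in fibrosis and 2.87 to 5.25 CPM in control. Hist1h3e was the 1 of 4 tested genes that was higher, beside 18.6% of all genes tested, and had passed the filter through the fibrosis libraries alone. It was at 1.77, 0.862, 0.598, 1.19 and 0.976 CPM in fibrosis, against 0.601, 0.440, 0.319, 0.226 and 0.727 CPM in control. Fibrosis 3 lay within the control range and fibrosis 1 was highest. The log2 fold change was 1.21 ± 0.38 (adjusted p = 0.0234 by edgeR); the call was lost without fibrosis 1, without control 2, 3 or 4, and without fibrosis 4 and 5 together. Of the 50-base words of its transcript, 73.4% also occur in other genes. Hist1h3a (1.10 ± 0.47, adjusted p = 0.0808 by edgeR), which passed without fibrosis 5, Hist1h3c (0.38 ± 0.32) and Hist2h3c2 (0.17 ± 0.33) did not pass with all libraries.

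The H4 genes split: 5 of 6 tested genes were higher, beside 18.6% of all genes tested, while the H4 gene with most captured RNA was not. The median log2 fold change was 1.51. Of the 5, Hist1h4c and Hist1h4h had passed the filter through the fibrosis libraries alone. Hist1h4m (chr13:21811746-21812147, +) was at 2.57, 2.83, 3.95, 5.63 and 8.59 CPM in fibrosis, against 1.48, 1.93, 1.49, 1.02 and 1.82 CPM in control. Every fibrosis library was above every control library, with fibrosis 4 and 5 the highest. Its log2 fold change was 1.60 ± 0.33 (adjusted p = 0.00234 by edgeR), and 1.02 without fibrosis 4 and 5. Hist1h4h (chr13:23531050-23531519, +) was at 1.71, 1.29, 1.26, 3.41 and 2.54 CPM in fibrosis, against 0.929, 0.220, 0.319, 0.792 and 0.909 CPM in control, without overlap (1.67 ± 0.41, adjusted p = 0.00696 by edgeR).

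Hist1h4n (1.64 ± 0.48), Hist1h4c (1.41 ± 0.38) and Hist1h4d (0.99 ± 0.28) were also higher, with adjusted p = 0.0173, 0.0105 and 0.0138 by edgeR. Without fibrosis 4 and 5, Hist1h4n (1.23) and Hist1h4c (0.86) were not called and Hist1h4d was (0.94). Hist1h4m and Hist1h4n share 89.8 and 85.6% of their 50-base words with other genes, so their counts depend on how the authors placed shared reads, which the sources used here do not state.

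Hist1h4i (ENSMUSG00000060639, chr13:22040636-22041362, -) had the second highest level per length of the 67 genes, at 27.0 ± 10.8 FPKM in fibrosis and 29.7 ± 3.30 FPKM in control. It was at 16.5, 14.1, 13.5, 32.9 and 23.0 CPM in fibrosis, against 20.7, 18.5, 20.9, 24.4 and 23.5 CPM in control. Fibrosis 1, 2 and 3 lay below all control libraries, fibrosis 4 above all of them and fibrosis 5 among them. With all libraries the log2 fold change was -0.12 ± 0.22 (adjusted p = 0.715 by edgeR). Without fibrosis 4 and 5 it was -0.55, and Hist1h4i was then called lower (adjusted p = 0.00443 by edgeR; its alternatives gave 0.00443 to 0.965). In that fit 18.8% of all genes tested were lower.

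The sequence upstream of each gene's start is shown for a linker histone, an H2A and 2 H4 genes, of which Hist1h4m was called higher and Hist1h4i was not called. RefSeq (GRCm38.p6) gave 66 of the 67 genes an entry and 61 a promoter; the windows are the 250 bases before the start, 5′ to 3′ on the gene's strand. Capitals mark matches, on either strand, to CCAAT (bound by NF-Y), TATAAA (the TATA box), ATTTGCAT (the octamer, bound by Oct1), AAACACA (the H1 box) and GGTCCG (part of the H4 element bound by Hinfp):
Hist1h1c: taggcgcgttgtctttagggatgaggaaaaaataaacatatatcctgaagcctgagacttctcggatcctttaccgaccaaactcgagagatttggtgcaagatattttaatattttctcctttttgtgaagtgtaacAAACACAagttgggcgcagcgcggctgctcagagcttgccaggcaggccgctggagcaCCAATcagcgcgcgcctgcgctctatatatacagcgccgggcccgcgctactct
Hist1h2ac: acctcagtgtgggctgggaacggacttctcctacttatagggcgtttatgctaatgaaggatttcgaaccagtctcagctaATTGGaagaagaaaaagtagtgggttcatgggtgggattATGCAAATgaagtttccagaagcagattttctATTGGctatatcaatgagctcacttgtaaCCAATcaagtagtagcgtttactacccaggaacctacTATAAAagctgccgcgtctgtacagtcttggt
Hist1h4m: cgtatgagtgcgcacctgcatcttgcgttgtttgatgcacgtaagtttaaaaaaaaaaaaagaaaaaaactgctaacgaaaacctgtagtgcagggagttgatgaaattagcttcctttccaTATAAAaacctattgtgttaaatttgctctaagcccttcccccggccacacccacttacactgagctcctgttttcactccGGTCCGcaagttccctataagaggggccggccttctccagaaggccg
Hist1h4i: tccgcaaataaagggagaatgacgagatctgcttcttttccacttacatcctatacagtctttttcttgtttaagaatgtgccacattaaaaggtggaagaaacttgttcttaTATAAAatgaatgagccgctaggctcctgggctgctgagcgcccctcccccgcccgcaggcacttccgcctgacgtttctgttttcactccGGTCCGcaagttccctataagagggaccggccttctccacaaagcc
These windows lie at chr13:23738557-23738806 (+), chr13:23683960-23684209 (-), chr13:21811496-21811745 (+) and chr13:22041363-22041612 (-) in that order. Hist1h4m, which rose, and Hist1h4i, which did not pass, share an identical run of 38 bases around GGTCCG, and Hist1h4m and Hist1h4n share 249 bases.

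Across the 61 promoters CCAAT occurred in 82.0%, against 37.5% of the 27025 promoters of all genes, TATAAA in 47.5% against 14.3%, and ATTTGCAT in 23.0% against 1.8%. AAACACA occurred in 14.8% against 7.2%, including 5 of 6 H1 promoters, and GGTCCG in 11 of the 61 against 7.7%, including 9 of 12 H4 promoters. By outcome of the test, CCAAT occurred in 9 of 12 promoters of higher genes and 8 of 10 of tested genes that did not pass, TATAAA in 7 of 12 and 4 of 10, and GGTCCG in 4 of 12 and 2 of 10. A match only describes these letters and does not show that a factor binds there.

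By cluster, 12 of 21 tested genes of Hist1, 0 of 2 of Hist2 and 1 of 2 of Hist3 were higher, beside 18.6% of all genes tested. The 2 tested Hist2 genes were Hist2h2be and Hist2h3c2. Neither was at an unadjusted p under 0.05 by edgeR, and DESeq2 and limma voom called neither. Hist4h4 had too few counts to be tested (37 in fibrosis and 22 in control). Summed levels were 130.0, 144.1, 171.7, 289.7 and 300.0 CPM for Hist1 in fibrosis, against 98.2 to 113.9 CPM in control, without overlap. For Hist2 they were 15.4 to 21.9 CPM in fibrosis and 16.4 to 21.0 CPM in control, and for Hist3 7.66 to 15.5 CPM in fibrosis and 7.39 to 9.50 CPM in control. The Hist1 sum is mostly Hist1h1c and the Hist2 sum mostly Hist2h2be, so these sums describe few genes, and clusters were not tested against each other. The 4 genes with the most counts, Hist1h1c, Hist1h2bc, Hist1h4i and Hist2h2be, held 77.2% of all histone counts, and the other 63 genes summed to 39.8 to 68.7 CPM in fibrosis and 24.7 to 32.4 CPM in control.

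The 42 genes that were not tested held 808 counts in fibrosis and 580 in control. Of these, 6 had no count in any library, and the other 36 had between 1 and 111 counts, with more counts in fibrosis for 23, fewer for 10 and equal numbers for 3. With no filter on low counts, 61 genes with a count were tested and 17 were higher (27.9%, beside 6.94% of the 33548 genes of that fit) and 0 lower. The 4 added to the 13 were Hist1h1a (1.86), Hist1h2br (1.83), Hist1h3f (2.08) and Hist1h1e (0.90). Hist1h1a had 59 counts in fibrosis and 18 in control, so 5 of the 6 H1 genes were higher in that fit.

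**Figure D4:**
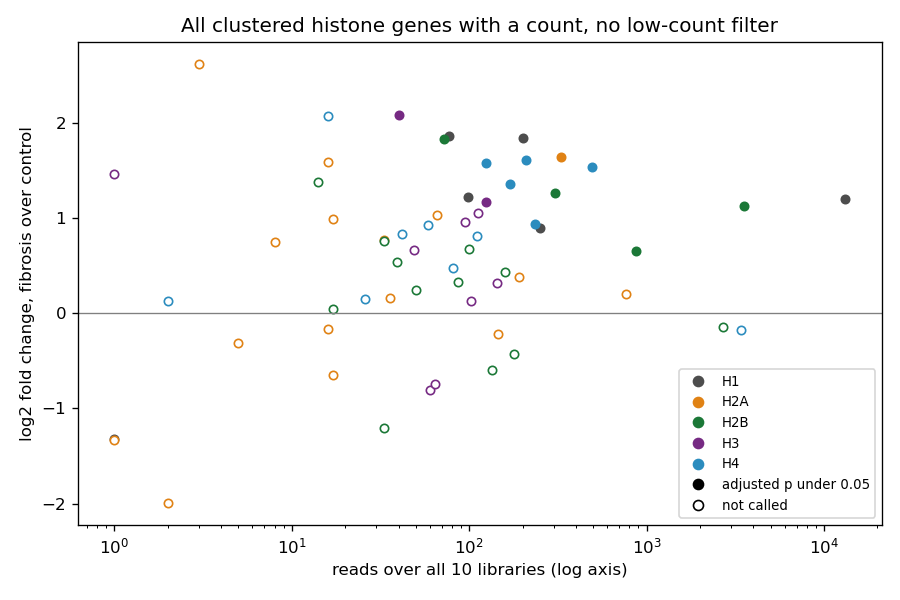
Log2 fold change, fibrosis over control, of the 61 clustered histone genes with a count, against their counts summed over all 10 libraries (log axis), from an edgeR fit with no filter on low counts. The 17 filled points had an adjusted p under 0.05 and lie above 0; the 4 points furthest right, with the most counts, are Hist1h1c and Hist1h2bc above 0 and Hist1h4i and Hist2h2be just below it.

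Many histone genes were highest in fibrosis 4 or 5. Among the 25 tested genes, 21 had their highest fibrosis level in fibrosis 4 or 5, and in 8, of which 7 were higher, these were the top 2 of all 10 libraries. The share of all genes with this order was not counted, so these numbers do not set the histone genes apart. Without fibrosis 4 and 5, 29 genes were tested, 11 were higher (beside 18.4% of all genes) and 1, Hist1h4i, was lower. Of the 13 genes, 9 were called higher again, and Hist1h1a and Hist2h4 were added.

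The same libraries held more RNA of other cell types. Platelet markers summed to 219.4, 279.6, 559.8, 957.7 and 1007 CPM in fibrosis 1 to 5, against 123.1 to 154.5 CPM in control, in the same order of fibrosis libraries as the histone sum; all 5 tested of 6 markers were higher and none was at 0 in all libraries. Neutrophil markers were at 3017 and 3983 CPM in fibrosis 4 and 5, against 307.4 to 1195 CPM in the other fibrosis libraries and 467.1 to 1233 CPM in control; edgeR, DESeq2 and limma voom called 0 of 6, and 2 were higher at an unadjusted p under 0.05 by edgeR. That sum is mostly S100a8 and S100a9, while Mpo was at 57.3 and 84.1 CPM in fibrosis 4 and 5, against 157 to 360 CPM in control, and Elane at 39.0 and 47.4 CPM in fibrosis 4 and 5, against 55.8 to 125 CPM in control. Macrophage markers were at 2622 and 2747 CPM in fibrosis 4 and 5, against 656.8 to 682.9 CPM in the other fibrosis libraries and 823.0 to 1532 CPM in control; edgeR and DESeq2 called 0 of 6, none at an unadjusted p under 0.05 by edgeR, and limma voom called 1 lower. Dendritic cell markers spanned 161.8 to 210.3 CPM in fibrosis and 89.7 to 98.2 CPM in control, with 4 of 6 higher. Of the NK cell markers 3 of 5 were higher, with a sum of 56.9 to 122.5 CPM in fibrosis and 52.9 to 91.8 CPM in control, and of the T cell markers 1 of 6, with 53.3 to 98.5 CPM in fibrosis and 42.5 to 63.4 CPM in control. The B cell genes Ms4a1, Cd79a, Cd79b and Pax5 had reads in every library: Ms4a1 was higher (0.47 ± 0.12, adjusted p = 0.00707 by edgeR), while Cd79a (0.30), Cd79b (0.27) and Pax5 (0.19) did not pass. The full list of 5 B cell markers summed to 6573, 6931, 6380, 5003 and 5113 CPM in fibrosis 1 to 5. In control the sum was 4690 to 5302 CPM, so fibrosis 4 and 5 lay within the control range and the other fibrosis libraries above it. The part of other cells in the histone changes was not tested, and in bulk samples fewer cells of a type and less RNA per cell cannot be told apart.

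Erythroid markers, from the red cell lineage, summed to 777.8 to 6121 CPM in fibrosis and 3098 to 5230 CPM in control, with 7 of 10 lower. With the erythroid score of each library as a covariate no clustered histone gene was called by edgeR (10 were higher at an unadjusted p under 0.05), and over all genes 48 were higher (0.336%) and 24 lower (0.168%). In that fit the 25 genes had a median log2 fold change of 0.93. Hist1h1c was at 1.47, Hist1h1d at 2.70, Hist1h3e at 1.71 and Hist1h4h at 2.36, whereas Hist1h2ac was at 0.95, Hist1h2be at 0.72 and Hist1h4n at 0.92.

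**Figure D5:**
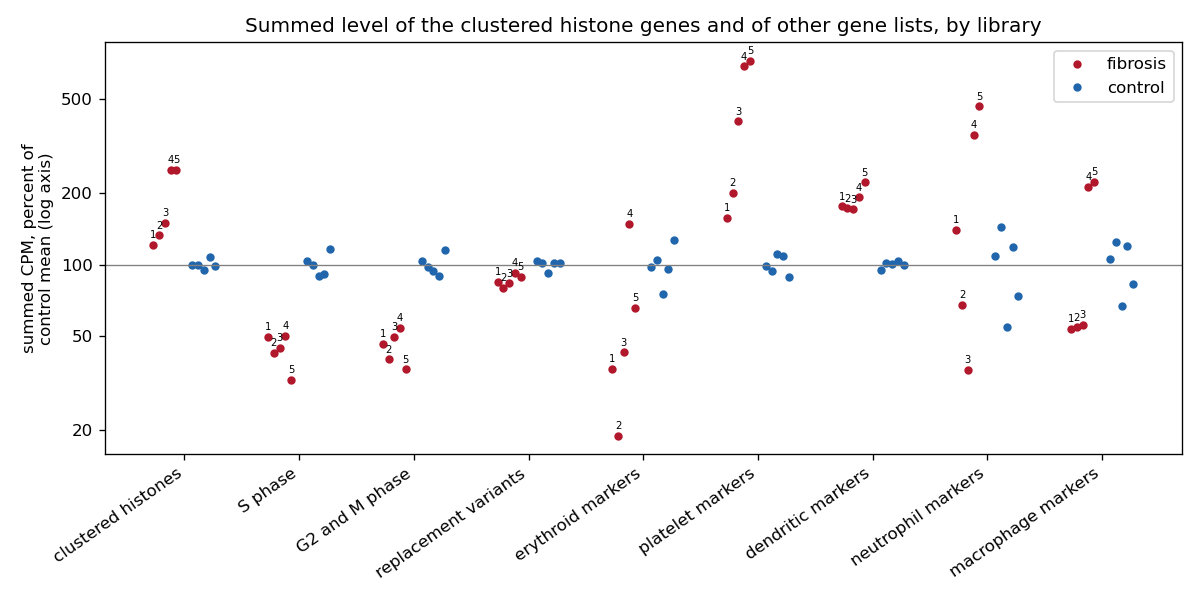
Summed level of the clustered histone genes and of 8 other gene lists in each library, as a percentage of the mean of the control libraries (log axis); points of fibrosis libraries carry their numbers and lie left of control. Clustered histones reach 250.8 and 251.5% in fibrosis 4 and 5, platelet markers 688.2 and 723.6%, while S phase genes lie at 32.5 to 49.99% in fibrosis.

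Genes of the cell cycle, with which clustered histone mRNA normally moves, were lower. Of 26 S phase genes 25 were lower, with a median log2 fold change of -1.16, and of 26 G2 and M phase genes 25 were lower, with a median of -1.17. The S phase sum was 1689 to 2597 CPM in fibrosis and 4660 to 6061 CPM in control, without overlap. Fibrosis 4 and 5, with nearly equal histone sums, had the highest (2597 CPM) and the lowest (1689 CPM) S phase sum of the fibrosis libraries.

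Slbp, the stem-loop binding protein, averaged 84.7 ± 12.5 CPM in the fibrosis libraries and 146 ± 18.8 CPM in the control libraries (SD, n = 5 each), without overlap, a log2 fold change of -0.79 ± 0.12 (adjusted p = 0.000254 by edgeR). Of 20 genes of histone mRNA processing, 5 were lower, namely Slbp, the cleavage scaffold Sympk (-0.40), the decay helicase Upf1 (-0.49), the cap-binding subunit Ncbp1 (-0.32) and its partner Srrt (-0.51). The 2 that were higher were the termination factor Pcf11 (0.45 ± 0.12, adjusted p = 0.0106 by edgeR) and the poly-A polymerase Papolg (0.59 ± 0.12, adjusted p = 0.00245 by edgeR). The other 13, which include further cleavage and polyadenylation factors, did not pass. Beside these counts, 17.2% of all genes tested were lower and 18.6% higher.

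Npat, the coactivator of clustered histone transcription, did not pass (-0.07 ± 0.13, adjusted p = 0.734 by edgeR), nor did Hinfp (-0.10 ± 0.12), the H4 promoter factor. Of 23 genes of histone transcription and chaperones, 13 were lower and 0 higher. Chaf1a and Chaf1b, subunits of the factor that loads new H3 and H4 onto replicated DNA, were among them at -1.55 ± 0.14 and -1.32 ± 0.13, as were the H3-H4 chaperone Asf1b (-0.93 ± 0.12), the CCAAT-binding subunit Nfya (-0.30 ± 0.09) and the FACT subunits Supt16 (-0.46 ± 0.10) and Ssrp1 (-0.52 ± 0.08). None of the 23 was higher at an unadjusted p under 0.05 by edgeR, and limma voom called 2 higher.

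Many replacement histone genes, though not all of those listed here, are expressed throughout the cell cycle with polyadenylated mRNAs. Of 13, 10 were tested and 3 were lower; 0 were higher by edgeR, DESeq2 or limma voom, and none at an unadjusted p under 0.05 by edgeR. Cenpa, the centromeric H3, was at -0.96 ± 0.11 (adjusted p = 5.3e-05 by edgeR), H2afx, which is phosphorylated at DNA breaks, at -0.52 ± 0.12 and H3f3b, a gene of replacement H3, at -0.33 ± 0.08. Per length they stood far above most clustered genes: H3f3b was at 190 ± 16.0 FPKM in fibrosis and 242 ± 9.17 FPKM in control, whereas only 6 clustered genes had a mean over all libraries above 5 FPKM (Hist1h1c, Hist1h4i, Hist1h2bc, Hist3h2ba, Hist1h4m and Hist2h2be).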

How the data were processed

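Per the labels' protocols, mRNA was purified with poly-T beads and copied with random hexamers; the submitters' processing notes name the build GRCm38 (mm10). The sources used here name no aligner, counting program or strand setting. Per gene, the authors deposited raw whole-number counts and FPKM, which are scaled for gene length and library size. Counts were tested with edgeR 4.0.16 (R 4.3.3; filterByExpr, TMM, robust quasi-likelihood fit, no covariate, Benjamini-Hochberg over all 14283 genes tested); an adjusted p under 0.05 made a call. Log2 fold changes are fibrosis over control, with SE. Deposited FPKM served to compare levels between genes. The biological coefficient of variation was 0.183.

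Named genes were, in each histone type, up to 4 tested genes with the highest mean FPKM and up to 3 called genes with the largest change, all tested genes outside Hist1, and called genes of the lists; the remaining tested histones are also given. The members and lists were chosen with earlier results of these data known; some list genes are not reported here. Replicate numbers are not said to pair libraries, so whether they do is unknown and the main fit had no block. Correlations of same-numbered deviations were -0.248 to 0.419, and the best matching control had the same number for fibrosis 1, 3 and 4. Alternatives used other scalings, filters, DESeq2 1.42.0, limma 3.58.1 (voom, and log2 of FPKM plus 1 or 0.1), protein-coding genes alone, a threshold of 0.01, the replicate block, the erythroid score, and left-out libraries. The code was tested on simulated data.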

Additional observations from a re-analysis of the deposited data

Results flagged for a closer look

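In 42 groups of 5 libraries (21 named histone genes in 2 groups), 3 had a library far from the others; chance alone flags about 1 group in 20. Hist1h1d was at 3.33 CPM in fibrosis 4, with the nearest fibrosis library at 1.83 CPM, a gap of 0.809 of the group's range. Hist1h2ac was at 7.29 CPM in fibrosis 5, with the nearest at 2.86 CPM (0.797 of the range). Hist2h2be was at 19.7 CPM in fibrosis 4, with the nearest at 15.4 CPM (0.751 of the range, against a critical value of 0.71). All 3 libraries are fibrosis 4 or 5, in which the summed platelet, neutrophil and macrophage markers were also highest. Single markers differed, since Mpo and Elane lay below control there. The neutrophil and macrophage lists each had 0 of 6 genes called by edgeR, and a part of such cells in these values was not tested.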

How the results depend on the processing

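The 13 higher and 0 lower histone genes were the same 13 under RLE scaling, library size scaling, TMM without immunoglobulin, haemoglobin and histone genes, DESeq2, limma voom and protein-coding genes alone. A filter of at least 1 CPM in 5 libraries left 13 histone genes tested, of which 9 were higher (2638 of all 13233 genes). Limma on log2 of FPKM plus 1 with no filter called 13 of 61 higher (1778 of all 33548 genes), 9 of them among the main 13. Leaving out each library gave 12 to 16 higher and 0 lower (all genes 2052 to 2914 higher and 2083 to 2582 lower). Without fibrosis 4 and 5, 1 histone gene was lower. At a threshold of 0.01, 8 histone genes and 1547 of all genes were higher. With the erythroid score as a covariate, 0 histone genes were higher, and 48 of all genes were higher and 24 lower; the cause was not tested. Library size scaling gave 1777 higher and 3306 lower of all genes, against 2654 and 2451, and moved the median log2 fold change of all genes to -0.06. The replicate block gave 13 higher and 0 lower histone genes, and 2677 higher and 2534 lower of all genes; only the number is shared, with same-number correlations of 0.109, -0.127, 0.419, 0.254 and -0.248.

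Of the named histone genes' alternative values, 481 kept their direction and side of the threshold, 25 lost the call, 4 gained one and 6 changed sign, all 6 in genes not called. These were Hist3h2a without fibrosis 4 and 5 (-0.00063), Hist1h2ae without fibrosis 1 (0.11; -0.55 to 0.11 when libraries were left out singly), Hist2h3c2 without fibrosis 4 (-0.021; -0.021 to 0.35 likewise) and, with the erythroid score, Hist2h2be (0.32), Hist1h3c (-0.080) and Hist1h4i (0.43); Nasp also changed sign there (0.0029). Depth limits the 42 untested genes, which had at most 111 counts over 10 libraries. Shared sequence between histone genes is a limit that no alternative removes.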
